A study of Mus musculus with 10 samples.

Results

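Serum response factor (SRF) and the coactivators that it recruits were followed in cardiomyocytes (contractile heart muscle cells) of the mouse. The 7 genes were chosen by name from the 23337 listed in the study's table: Srf itself, the myocardin-related and myocardin genes Mkl1, Mkl2 and Myocd, and the ternary complex factor genes Elk1, Elk3 and Elk4. The cells came from wild-type mice injected on postnatal day 1 with 5e+08 viral genomes per gram of an adeno-associated virus of serotype AAV9, and were collected on postnatal day 14 by collagenase perfusion of the heart and fluorescence-activated sorting. One group received AAV9-cTNT-GFP, which encodes green fluorescent protein alone, and the other AAV9-cTNT-dnMKL1-GFP. There were 5 libraries in each group, described as biological replicates. The animals in both groups thus carried virus and GFP, and the cTNT (cardiac troponin T) promoter confines the transgene to cells in which that promoter works. The sorted pool can hold other cells, and how many animals went into a library is not stated in the labels. MKL1 is also called MRTF-A, and dnMKL1 is a dominant-negative form of it. The comparison asks what dnMKL1 does to the transcripts of SRF and its partners, relative to GFP virus.

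As background, SRF is a MADS-box transcription factor that binds a short A- and T-rich element, the CArG box, and by itself activates little. It works through 2 families of partners. The MRTFs, encoded by Mkl1 and Mkl2, bind monomeric actin and move to the nucleus when actin assembles into filaments, whereas myocardin is nuclear and is made in heart and smooth muscle. The ternary complex factors ELK1, ELK3 and ELK4 carry an ETS DNA-binding domain, are phosphorylated by ERK, and compete with MRTFs for the same face of SRF. SRF controls muscle, cytoskeletal and immediate early genes, and its own gene is among the known targets of this system.

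The table analysed gives one comparison per gene and no value per library, so each gene is described by 2 group means. The base mean is the authors' average of size-factor normalized counts over all libraries. Group means computed from it and from the fold change are called implied means, in normalized counts. Their 95% intervals came from a negative binomial model with the spread between libraries that the deposited standard error (SE) implies. Estimated library totals ran from 8803028 to 17123577 counts for GFP and from 8835136 to 17228616 for dnMKL1. Positive log2 fold changes mean higher levels in dnMKL1 libraries. The headers do not state the direction, which was read from Mkl1.

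The sequence before the start of Srf is shown because Srf is the one member lower at an adjusted p under 0.05 and because 2 CArG boxes lie in it. Whether these boxes bear on its change was not tested. It is the RefSeq sequence of GRCm38.p6, chr17:46556163-46556412, minus strand, printed 5′ to 3′ and ending at the last base before the start site, with matches to the CArG consensus in capitals.
Srf: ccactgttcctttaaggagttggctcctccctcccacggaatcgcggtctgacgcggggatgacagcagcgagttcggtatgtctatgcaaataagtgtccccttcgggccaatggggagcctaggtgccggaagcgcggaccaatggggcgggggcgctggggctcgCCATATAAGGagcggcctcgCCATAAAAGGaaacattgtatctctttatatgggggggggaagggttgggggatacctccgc

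With the start site at 0 and the last of the 250 bases at -1, the CArG boxes lie from -82 to -73 and from -62 to -53. Windows from 250 bases before to 50 after a start were searched on both strands for the CArG box and for an ETS motif, CCGGAAG. Of 32851 such RefSeq windows, 1.63% hold a CArG box, 0.0183% hold 2 or more, and 8.86% hold the ETS motif. Srf has 1 window and is among the 6 windows with 2 or more CArG boxes. It also holds the ETS motif, from -122 to -116, which does not overlap either box. Windows were found for 6 of the 7 members, 11 windows in all. Myocd had none and was not searched. Of these, the windows of Mkl1, Mkl2, Elk1 and Elk3 hold neither motif, and 1 of the 3 windows of Elk4 holds the ETS motif from -68 to -62. The ETS motifs of Srf and Elk4 are shown with 10 bases on each side and the motif in capitals, at chr17:46556268-46556294 on the minus strand and chr1:132007542-132007568 on the plus strand.
Srf: agcctaggtgCCGGAAGcgcggaccaa
Elk4: ggcccctcccCCGGAAGtgacgctcgc

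**Figure D1:**
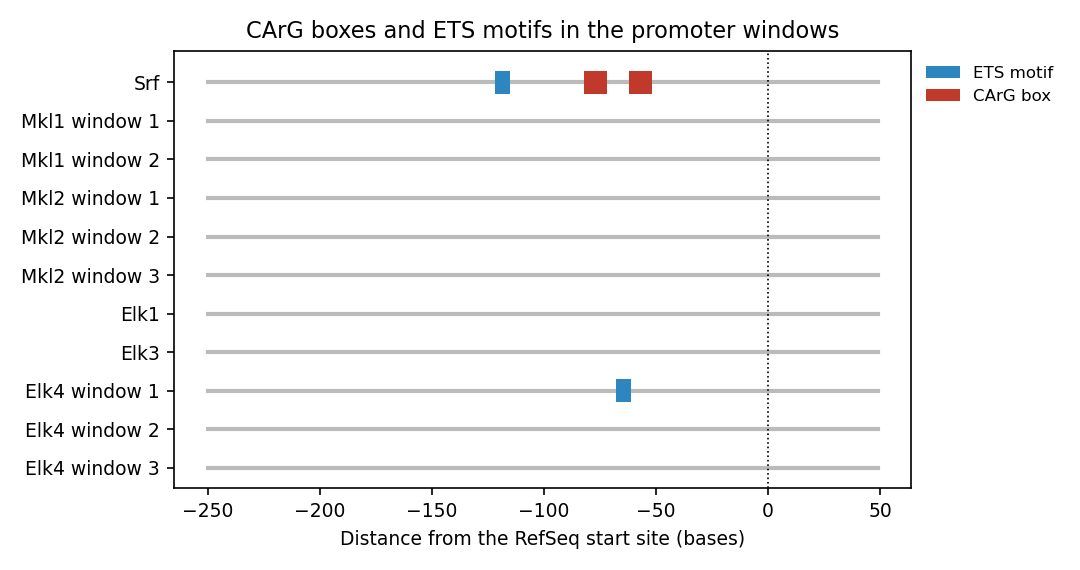
Positions of CArG boxes (red) and of the ETS motif (blue) in the RefSeq promoter windows of 6 members, with distance from the start site in bases on the horizontal axis and 1 line per window. The boxes of Srf sit at -82 and -62, and none of the other members shown has one in its windows. Myocd had no window and was not searched.

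Of the 7 members, 4 passed an adjusted p of 0.05 in the authors' deposited table (Benjamini-Hochberg over 14056 genes), 3 higher and 1 lower. As background, 34.1% of all genes tested passed, 16.6% higher and 17.4% lower. Mkl1 is the gene from which the transgene derives, which leaves 3 of the other 6. Each of the 7 had an adjusted p and a base mean above 10. Scaling both groups to the same total count, in place of the authors' size factors, adds 0.29 to every log2 fold change. Over all genes it turned 2340 higher and 2452 lower calls into 5685 and 927, so changes of named genes are given under both scalings where the call differs.

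Mkl1 is given first, as the targeted gene. Since the direction of the table was read from it, its rise does not check the labels. Its implied mean was 83.9 normalized counts in GFP libraries (95% interval 71.4 to 98.7) and 74899 in dnMKL1 libraries (65908 to 85116). The authors' deposited table gave Mkl1 a log2 fold change of 9.80 (SE 0.15), the largest of its 17371, with the adjusted p listed as 0. Mkl1 took 0.00063% of GFP and 0.686% of dnMKL1 normalized counts. About 411 reads over 5 GFP libraries lie behind the lower value and about 417072 over 5 dnMKL1 libraries behind the higher. The gene count does not separate transgene from endogenous reads. Whether endogenous Mkl1 changed is therefore not given by these values.

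Srf, the DNA-binding partner of both cofactor families, fell. Its implied mean was 1082 normalized counts in GFP libraries (95% interval 981 to 1192) and 620 in dnMKL1 libraries (562 to 685), and the intervals do not overlap. The authors' deposited table gave a log2 fold change of -0.80 (SE 0.10, 95% interval -1.003 to -0.601, adjusted p = 2.55e-13). Srf thus fell by 42.6% relative to the authors' scaling. Of the 14056 genes tested, 5.25% had a lower log2 fold change than Srf. Under total-count scaling the value was -0.51 (95% interval -0.71 to -0.31). Srf lies on chromosome 17 (46548329 to 46556175 in GENCODE M21 on GRCm38), and no exon of it overlaps an exon of another gene there.

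Both other coactivator genes of the family rose. Myocd, which encodes myocardin, had implied means of 2293 normalized counts in GFP libraries (95% interval 1869 to 2814) and 4272 in dnMKL1 libraries (3483 to 5240). For Myocd the authors' deposited table gave a log2 fold change of 0.90 (SE 0.21, 95% interval 0.48 to 1.31, adjusted p = 0.000178), a rise to 1.86 times the GFP level. Mkl2, the gene of MRTF-B, had 402 normalized counts in GFP libraries (370 to 436) and 541 in dnMKL1 libraries (501 to 585). The value of Mkl2 in the authors' deposited table was 0.43 on the log2 scale (SE 0.08, 95% interval 0.27 to 0.59, adjusted p = 3.15e-06), a rise to 1.35 times. Neither gene's group intervals overlap. Of the genes tested, 8.52% had a higher log2 fold change than Myocd and 20.2% a higher one than Mkl2. Total-count scaling gave 1.19 for Myocd and 0.72 for Mkl2.

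**Figure D2:**
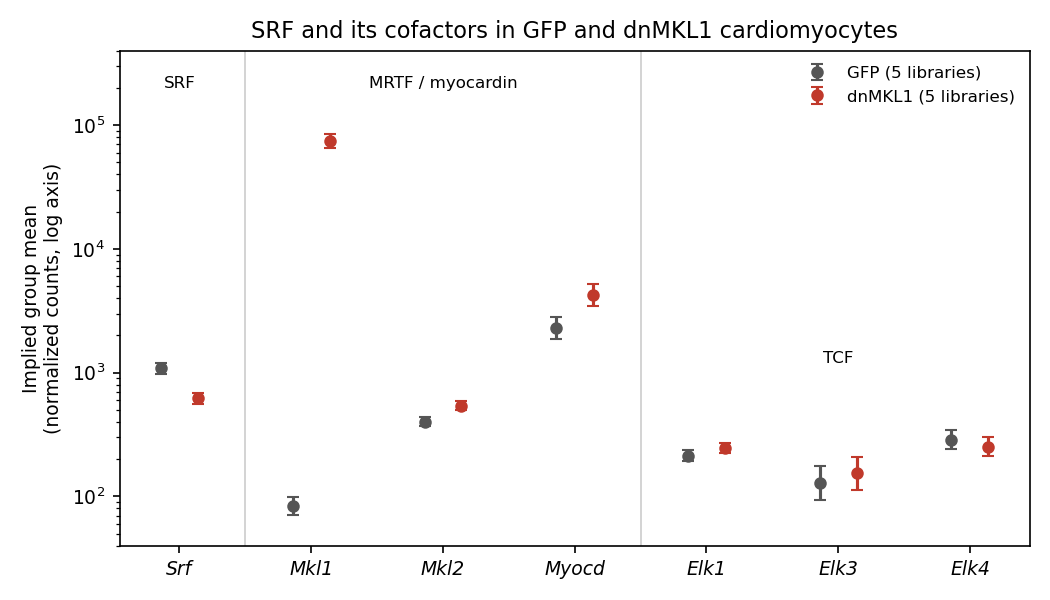
Implied group means of the 7 members in normalized counts (log axis) for the GFP (grey) and dnMKL1 (red) groups, 5 libraries each, with 95% model intervals as bars. Srf moves down from 1082 to 620, Mkl1, Mkl2 and Myocd move up, and the intervals of the 3 Elk genes overlap.

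None of the 3 ternary complex factor genes passed the threshold, by the adjusted Wald p of the authors' deposited table, though Elk1 had an unadjusted p under 0.05. Elk1 had implied means of 213 normalized counts in GFP libraries (95% interval 193 to 236) and 247 in dnMKL1 libraries (225 to 271). The authors' deposited table listed 0.21 on the log2 scale (SE 0.10, 95% interval 0.01 to 0.41), with p = 0.0356 and adjusted p = 0.0916. Under total-count scaling Elk1 reached 0.50 and passed the threshold. Elk3, which encodes the factor also known as Net, had 128 normalized counts in GFP libraries (93.6 to 175) and 154 in dnMKL1 libraries (113 to 209). The authors' deposited table gave it 0.27 (SE 0.32, 95% interval -0.37 to 0.90, adjusted p = 0.594). Elk4, the gene of SAP-1, had 287 (241 to 343) and 252 (211 to 301) normalized counts, and the authors' deposited table listed -0.19 (SE 0.18, 95% interval -0.55 to 0.17, adjusted p = 0.488). Total-count scaling turned the value of Elk4 to 0.10, also short of the threshold. These intervals bound the change but do not show that the genes stayed level: a rise of Elk3 to 1.86 times, or a fall of Elk4 to 0.685 times, lies at their edges.

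**Figure D3:**
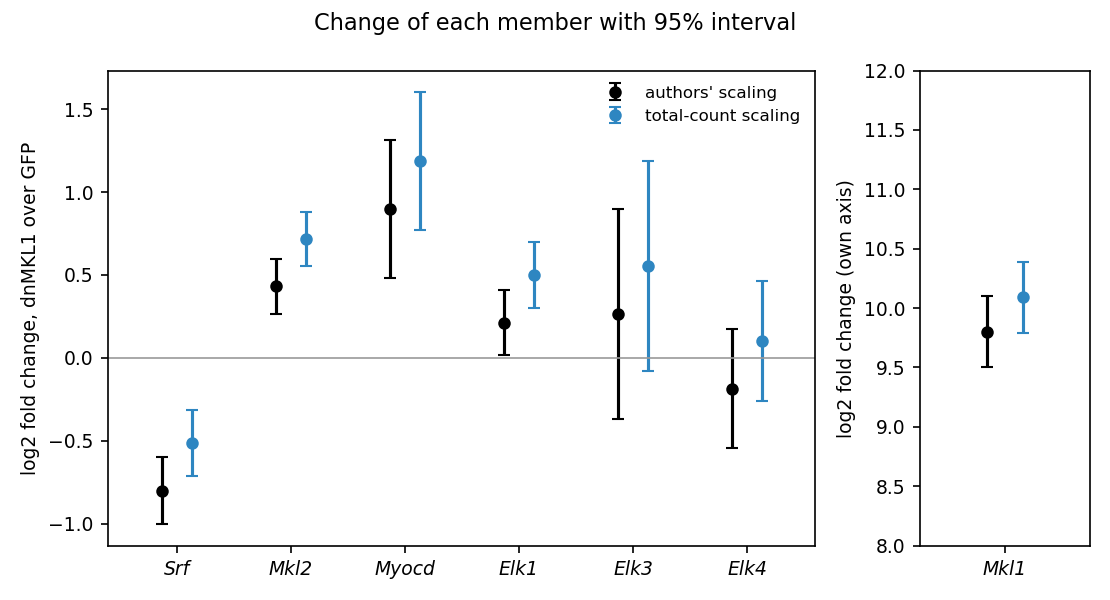
Log2 fold change of each member, dnMKL1 over GFP, with its 95% interval, under the authors' scaling (black) and total-count scaling (blue), with Mkl1 on an axis of its own. Srf lies below 0 and Mkl2, Myocd and Mkl1 above it under both, while Elk4 moves from -0.19 to 0.10.

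Differences between members within the same libraries do not depend on scaling. For 2 genes, the log2 fold changes were subtracted and the 2 SEs added, which is the widest SE that any correlation between the genes allows. Mkl1 was left out, and 15 pairs remained. In 8 pairs the 95% interval of the difference, not adjusted for the number of pairs, left out 0. All 5 pairs with Srf were among these. Srf minus Myocd was -1.70 (95% interval -2.32 to -1.08), Srf minus Mkl2 was -1.23 (-1.60 to -0.87), and Srf minus Elk1 was -1.01 (-1.41 to -0.62). Against Elk3 and Elk4 the differences were -1.07 (-1.90 to -0.23) and -0.62 (-1.18 to -0.05). Srf transcripts thus fell relative to those of each of these 5 genes. Myocd minus Elk4 was 1.08 (0.31 to 1.86), Myocd minus Elk1 was 0.69 (0.07 to 1.30), and Mkl2 minus Elk4 was 0.62 (0.09 to 1.14). Between Myocd and Mkl2 the difference was 0.47 with an interval that held 0 (Mkl2 minus Myocd, -1.05 to 0.11), and no pair of Elk genes was told apart.

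Per kilobase of the longest GENCODE M21 transcript, Myocd and Srf were the most abundant members in GFP libraries. Myocd stood at 448 normalized counts per kb (95% interval 365 to 550) and Srf at 413 (375 to 456), and these levels did not differ beyond their intervals. Srf was 6.38 times the next member, Elk4, at 64.8 normalized counts per kb (54.3 to 77.3). Elk1 followed at 60.1 (54.5 to 66.4), within the interval of Elk4. Mkl2 came next at 48.4 (44.6 to 52.6), then Elk3 at 30.4 (22.2 to 41.5), and Mkl1 was lowest at 19.1 (16.3 to 22.5), with an interval that meets that of Elk3. In dnMKL1 libraries the level of Myocd was 835 normalized counts per kb and that of Srf 237. The length chosen moves these levels: with the union of exons, Srf (374) lay above Myocd (357) and Mkl2 (44.7) above Elk1 (39.7), and with the median transcript length Srf (1756) lay well above Myocd (752). Under all 3 lengths Srf and Myocd were the highest and Mkl1 the lowest. No level per kb is given for Mkl1 in dnMKL1 libraries, since the length of the transgene's transcript is not stated.

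The members differed in how much their levels varied among libraries of a group. The SE that counting alone would give was computed from the read numbers, and the rest was expressed as a coefficient of variation (CV) between libraries. Myocd had a deposited SE of 0.21, against 0.017 from counting, and an implied CV of 23.3%. That is above 96.9% of the 1013 genes with a base mean within 2-fold of its own, whose median was 10.3%. Elk3 had the largest implied CV of the members, 34.4%, above 94.7% of 3414 genes of like base mean, and Elk4 followed Myocd with 19.2%. The CVs of Srf (10.6%), Elk1 (8.76%) and Mkl2 (7.87%) were near or below the medians of genes like them. Mkl1 had an implied CV of 14.6%. Fits of the DESeq2 type draw such estimates toward those of other genes, so the CVs describe the fitted model and not the 10 separate values.

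**Figure D4:**
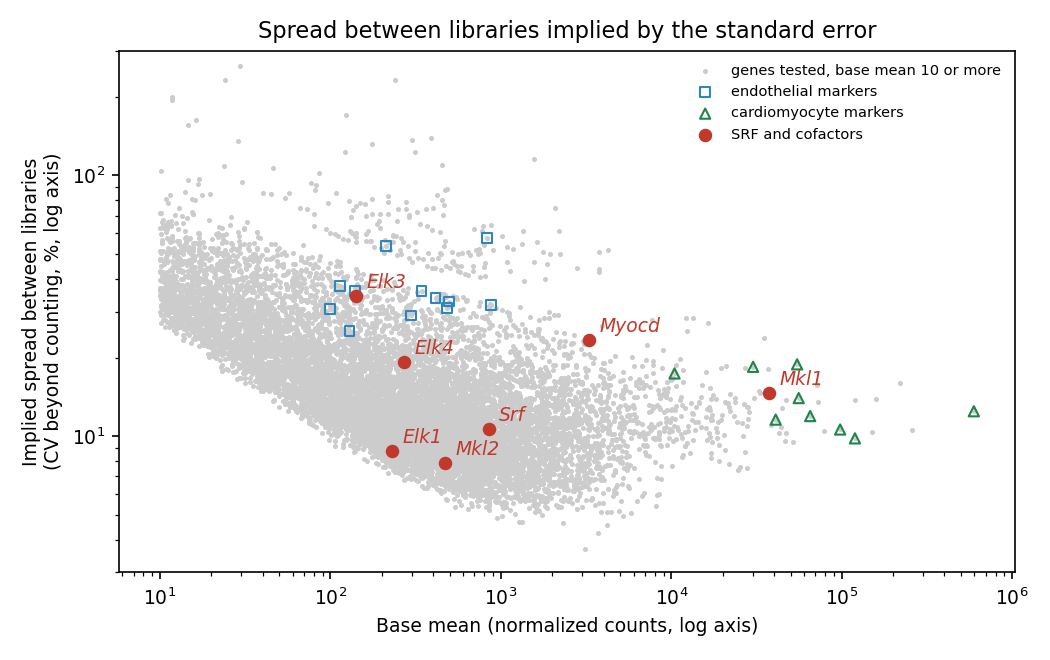
Implied CV between libraries (%, log axis) against base mean (normalized counts, log axis) for tested genes whose base mean reached 10 (grey), with the 7 members in red, endothelial markers as blue squares and cardiomyocyte markers as green triangles. Elk3 lies at 34.4% among the endothelial markers, and Myocd at 23.3% lies above most genes of its level. The cardiomyocyte markers lie at far higher base means than Elk3.

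Marker genes give the cells behind these values. In bulk samples, fewer cells of a type and less RNA per cell cannot be told apart. Beside the marker counts in this paragraph and the next, 16.6% of all genes tested were higher and 17.4% lower. Under total-count scaling 5685 of 14056 were higher and 927 lower. Each of 9 cardiomyocyte markers was present, with summed implied means of 1297500 normalized counts in GFP and 841369 in dnMKL1 libraries, 5 lower (3 under total-count scaling) and 0 higher. Myh6, the main myosin heavy chain of the adult mouse heart, had the largest base mean, 594986, and fell by 0.87 on the log2 scale (SE 0.11) in the authors' deposited table. Of 12 endothelial markers, 0 passed in either direction by the adjusted or the unadjusted Wald p of the authors' deposited table. Their sums were 4399 and 4458 normalized counts, and none was listed at 0. Kdr, the VEGF receptor of endothelium, stood at 0.10 (SE 0.29) and Cldn5, a tight junction protein, at 0.20 (SE 0.34) on the log2 scale of the authors' deposited table. Elk3 is known to be expressed in endothelium. The implied CVs of the endothelial markers ran from 25.3% to 57.4%, a range that holds the 34.4% of Elk3, and those of the cardiomyocyte markers from 9.80% to 18.8%. The cardiomyocyte markers are not matched to Elk3 in level, with base means from 10438 (Ryr2) to 594986 (Myh6) against 141. The CVs of Myocd (23.3%) and Elk4 (19.2%) lay between the 2 ranges, so the ranges do not assign a gene to a cell type. The part of endothelial RNA in the Elk3 value was not tested.

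Markers of stromal and immune cells stand beside the Myocd result, since smooth muscle also makes myocardin. Of 11 mural markers, 3 were higher and 2 lower (6 and 1 under total-count scaling), with sums of 48805 normalized counts in GFP and 41317 in dnMKL1 libraries. That list includes Des and Acta2, which cardiomyocytes express as well. The other 9 markers summed to 7805 and 10960 normalized counts, so the direction of the sum turns without Des and Acta2. Most of the 9-marker sums came from Abcc9 (6332 and 7773) and Cspg4 (501 and 2019), so they mainly follow these 2 genes. Abcc9 had a base mean of 7052, against 268 for Rgs5 and 124 for Kcnj8. Which cells the Abcc9 reads came from was not tested, so the 9-marker sums are not a measure of mural cells alone. The mural markers Myh11, Acta2, Tagln, Cnn1 and Des are also counted among the MRTF-SRF targets below, so the 2 counts are not separate. Of the mural markers called under the authors' scaling, only Cspg4 is not among those targets. Cspg4, the pericyte proteoglycan NG2, rose by 2.01 on the log2 scale (SE 0.18) in the authors' deposited table. The list's Rgs5, Pdgfrb and Kcnj8, named here after their values were seen, did not share that rise. They stood at 0.01 (SE 0.31), 0.18 (SE 0.24) and 0.03 (SE 0.30) there and passed under neither scaling. Des, the muscle intermediate filament protein, changed by -0.27 (SE 0.10) in the authors' deposited table and by 0.02, short of the threshold, under total-count scaling. Of 12 fibroblast markers, 5 were higher and 0 lower (8 and 0 under total-count scaling), with sums of 5228 and 8877 normalized counts. The largest gains in these sums came from Fbln1 (748 and 1944) and Gsn (876 and 1951). The other 7 fibroblast markers, among them Pdgfra at 0.06 (SE 0.25), did not pass under the authors' scaling. Gsn, an actin-severing protein also made in muscle, rose by 1.15 (SE 0.10) and Col3a1 by 0.44 (SE 0.15) in the authors' deposited table. Of 11 macrophage markers 1 was higher and 0 lower under both scalings, with sums of 187 and 164 normalized counts. In the authors' deposited table Cd68 rose by 1.03 (SE 0.39), and Lyz2 stood at -0.55 (SE 0.26) without passing. No marker in these lists was listed at 0, and their part in the changes of the 7 members was not tested.

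Genes for nuclear partners and inhibitors of SRF and MRTFs gave 3 calls. Of 18 genes, 1 was higher and 2 lower, with a median log2 fold change of -0.05 against 0.02 over all genes tested. Over all genes 16.6% were higher and 17.4% lower, so the list had a smaller share of calls than the background. Under total-count scaling 9 were higher and 0 lower, with a median of 0.24 against 0.31 over all genes. Under that scaling all genes had 5685 higher and 927 lower of 14056. Klf4, a factor that represses smooth muscle genes by acting against myocardin and SRF, had implied means of 108 and 214 normalized counts and rose by 0.98 (SE 0.18, adjusted p = 1.13e-06) in the authors' deposited table. Mef2d, a MADS-box relative of SRF, fell by 0.42 (SE 0.08) and Smad3, a TGF-beta effector, by 0.32 (SE 0.10) in the authors' deposited table. Under total-count scaling these 2 stood at -0.13 and -0.04 and did not pass. The cardiac SRF partners Nkx2-5, Gata4 and Tbx5, named here after their values were seen, stood at -0.0031 (SE 0.10), 0.10 (SE 0.07) and -0.02 (SE 0.09) on the log2 scale of the authors' deposited table, and did not pass. Under total-count scaling Nkx2-5, Gata4 and Tbx5 stood at 0.29, 0.39 and 0.27, and each passed as higher.

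In the Ras-ERK pathway, which acts on the ternary complex factors, 4 of 20 genes were higher and 3 lower, with a median of -0.01. Over all genes tested 16.6% were higher and 17.4% lower, with a median of 0.02, so the list as a whole lay near the background. Under total-count scaling 10 were higher and 0 lower, with a median of 0.28. Under that scaling all genes had 5685 higher and 927 lower of 14056, with a median of 0.31. Mapk3, encoding ERK1, had implied means of 320 and 543 normalized counts and rose by 0.76 (SE 0.14, adjusted p = 5.89e-07) in the authors' deposited table. Dusp6, an ERK phosphatase and feedback target of the pathway, rose by 0.93 (SE 0.21, adjusted p = 9.32e-05) there, from 162 to 308 normalized counts. Mapk9, which encodes the kinase JNK2, fell by 0.38 (SE 0.07, adjusted p = 1.04e-06) in the authors' deposited table, but stood at -0.09 under total-count scaling, short of the threshold.

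Among other ETS factors, 15 of 16 genes had a fold change, with 4 higher, 1 lower and a median of 0.14 (7 higher, 0 lower and 0.43 under total-count scaling). Over all genes tested 16.6% were higher and 17.4% lower, with a median of 0.02. Under total-count scaling all genes had 5685 higher and 927 lower of 14056, with a median of 0.31. Etv5, of the PEA3 group, rose from an implied mean of 345 to 1001 normalized counts, and the authors' deposited table gave 1.54 (SE 0.21, adjusted p = 1.98e-11). Elf4 went from 84.4 to 290.1 normalized counts, with 1.78 (SE 0.26, adjusted p = 2.70e-10) in the authors' deposited table. Gabpa, the ETS subunit of nuclear respiratory factor NRF-2, fell by 0.39 (SE 0.08, adjusted p = 2.56e-05) in the authors' deposited table, and stood at -0.10 without passing under total-count scaling. Etv2 was listed at 0.

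Downstream, 31 targets of MRTF and SRF spread in both directions, 11 higher and 9 lower, with a median of 0.28. Over the 28 whose base mean reached 100 the median was 0.02, and under total-count scaling 14 were higher and 7 lower with a median of 0.57. Over all genes tested 16.6% were higher and 17.4% lower, with a median of 0.02. Under total-count scaling all genes had 5685 higher and 927 lower of 14056, with a median of 0.31. The targets' summed implied means were 652637 normalized counts in GFP and 350813 in dnMKL1 libraries. These sums mainly follow Actc1 (326267 and 111228) and Tpm1 (198157 and 121237), both called lower. Wdr1, a cofactor of cofilin, fell from 3770 to 1969 normalized counts, or by 0.94 (SE 0.06) on the log2 scale of the authors' deposited table. Fhl1, a LIM protein of the sarcomere, rose from 1224 to 2581, or by 1.08 (SE 0.10), and Tpm2, a tropomyosin, from 63.7 to 327.5, or by 2.36 (SE 0.22), in the authors' deposited table. Of 16 immediate early genes linked to ternary complex factors, 14 had a fold change, 5 were higher and 0 lower by the adjusted p, and 6 had an unadjusted p under 0.05. Junb, an AP-1 subunit, rose from 318 to 561 normalized counts, or by 0.82 (SE 0.20) in the authors' deposited table. Jun, another AP-1 subunit, rose from 2897 to 4944, or by 0.77 (SE 0.24), and Ier2 from 274 to 395, or by 0.53 (SE 0.18), in the authors' deposited table. The 9 genes of this list that did not pass include Fos at 0.26 (SE 0.46) and Egr1 at 1.10 (SE 0.47), named after their values were seen. Under total-count scaling Egr1 stood at 1.39 and passed, and Fos did not. The list's median was 0.65, and 0.27 over the 11 genes whose base mean reached 100. Over all genes tested 16.6% were higher and 17.4% lower. Total-count scaling gave 8 higher and 0 lower in the list, and 5685 higher and 927 lower of all 14056 genes.

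**Figure D5:**
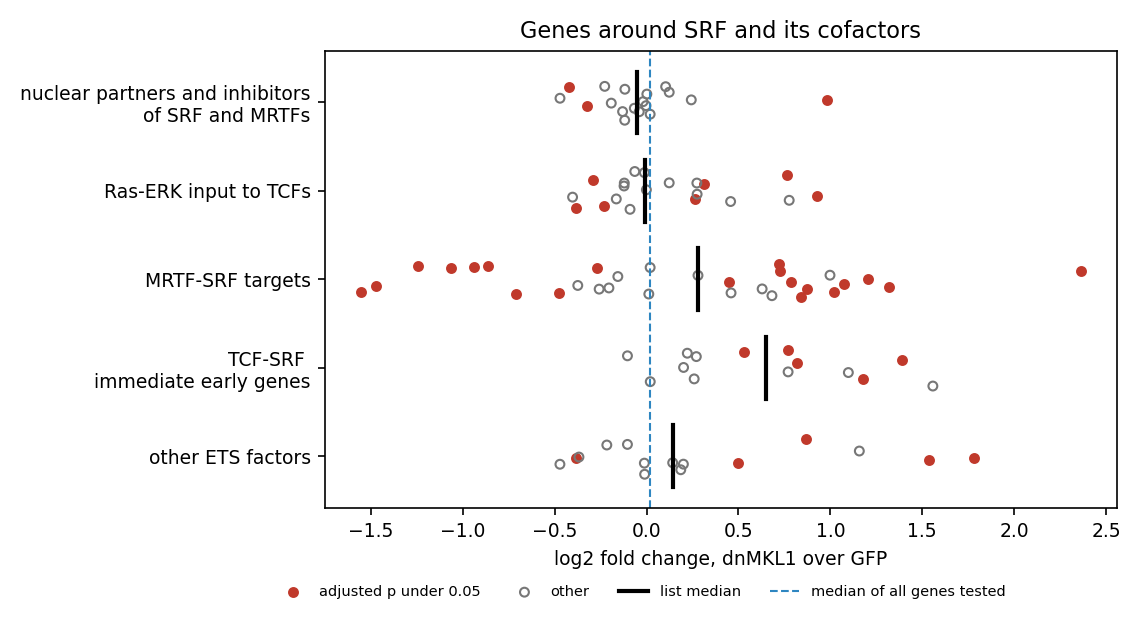
Log2 fold change (dnMKL1 over GFP) of each gene in 5 lists around SRF, filled where the adjusted p is under 0.05, with the list median as a black bar and the median of all genes tested as a dashed line. The MRTF-SRF targets spread from -1.55 to 2.36, and the called immediate early genes lie above 0.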

How the data were processed

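The libraries were made by SMART-seq and Nextera methods. Per the submitters' processing notes, reads were aligned with STAR 2.5.3a to mm10 and counted with featureCounts of Subread 1.5.2. Whether strand was used is not given in the sources used here. Per the file headers, the deposited table was laid out as DESeq2 writes its results. The deposited base mean is a signal in normalized counts. The log2 fold change and its SE were deposited on the log2 scale, without shrinkage as far as the values show. The Wald statistic, a score that the authors deposited, is their ratio (largest gap 1.14e-05), and the deposited p-value is its two-sided normal p-value. The adjusted p-value was deposited for 14056 genes, and a call means a value under 0.05.

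From these, implied means were computed with the base mean read as the mean over 2 equal groups. Genes with a single read in a single library gave the size factors (0.660 to 1.28 in GFP, 0.809 to 1.58 in dnMKL1). They cannot be matched to single libraries. The negative binomial dispersion was solved from each SE. Tested on simulated data for this comparison over 200 genes, the solved value was 1.00 times the true one at the median. The simulated SEs came from fits given the true dispersion. This therefore checks the solving step only, and not how well a deposited SE reflects the real spread between libraries. Intervals and read numbers cover the fitted model and counting only, and reads carry no molecular identifiers.

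The plan named a count test for the case of counts per library. The table holds none, so the authors' adjusted p was used. The members and lists were chosen with earlier results of these data known. From each pathway list the 3 genes with the smallest adjusted p and a base mean of 10 or more were named, and from each marker list the genes with the largest base mean and the smallest adjusted p. 1 planned list is not reported here. Of 150 list genes, 3 were found under an older symbol by RefSeq synonyms. Gene models came from GENCODE M21 on GRCm38, where Mkl1 and Mkl2 are Mrtfa and Mrtfb. Exons overlap those of other genes by 316 bases for Elk3 (Cdk17, opposite strand), 76 for Elk1 (Uxt, same strand), 10 for Mkl1 (Sgsm3), 162 for Mkl2, and 84 and 104 for Elk4, so shared reads may be split or lost there. Computation used Python 3.11.15, scipy 1.17.1 and pandas 2.3.3.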

Additional observations from a re-analysis of the deposited data

How the results depend on the processing

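Of 7 members, 7 kept direction and call at an adjusted p under 0.01, with adjustment over every p-value, with median-centring, and with base means of 10 or more, or 100 or more. Elk1 (0.21, adjusted p = 0.0916) passed at 0.1, and under total-count scaling at 0.50. That scaling reversed Elk4 to 0.10. A minimum absolute log2 fold change of 0.5 removed Mkl2 (0.43) from the calls and left 2735 of 4792 genes, since fewer can pass. Total-count scaling moved list medians to 0.57 (MRTF-SRF targets) and 0.43 (other ETS factors), and reversed those of nuclear partners to 0.24 and Ras-ERK genes to 0.28, by its own shift. The median of MRTF-SRF targets whose base mean reached 100 was 0.016. That filter left out Tagln (0.72), Cnn1 (1.00) and Lmod1 (0.68), which all lie above the full list's median of 0.28. The log2 ratio of summed mural markers turned from -0.24 to 0.49 without Des and Acta2, a choice made after seeing the data. Abcc9 alone gave 6332 (GFP) and 7773 (dnMKL1) normalized counts of what remained.

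Levels per kb in GFP libraries changed with the length used. With the median transcript they were 1756 (Srf), 52.2 (Mkl1), 124 (Mkl2), 752 (Myocd), 73.7 (Elk1), 95.7 (Elk3) and 185 (Elk4). With that length Mkl2 and Elk3 lay above Elk1, unlike with the longest transcript. With the union of exons, chosen after seeing the data, they were 374 (Srf), 13.7 (Mkl1), 44.7 (Mkl2), 357 (Myocd), 39.7 (Elk1), 28.1 (Elk3) and 44.8 (Elk4).

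No paired analysis was possible because the table gives no value per library. For the same reason fits without 1 library, other count tests and genes of like pattern across libraries were not run, so whether 1 library decides a value is unknown.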

Other observations

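The CArG box was also looked up across the table. Of 11058 tested genes with a RefSeq promoter window, 180 hold a CArG box in it, and 26 of these were higher and 35 lower by the adjusted p of the authors' deposited table. That is 33.9% called, against 34.6% of all tested genes with a window, and the median log2 fold change was 0.016 against 0.017. These shares are a description with no test. Dusp5, an ERK phosphatase gene, was the other tested gene with 2 boxes besides Srf, and the authors' deposited table listed it at 0.04 on the log2 scale (SE 0.19, adjusted p = 0.917). Among MRTF-SRF targets with a window, 8 hold a box, of which 2 were higher and 3 lower, and 19 do not, of which 7 were higher and 6 lower.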
